A study of Mus musculus with 24 samples.

Results

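The genes described here are 10 germline genes, Dazl, Ddx4, Mael, Sycp1, Sycp3, Tex101, Slc25a31, Asz1, Hormad1 and Dpep3, taken by gene name from the 34745 genes of the deposited count table. Each name matched a single gene. RNA-seq had been performed with total 129/DBA hybrid embryos at E13.5, 1 library per embryo. Of the 12 embryos, 6 were M-Z+ (Zfp57-/+) and 6 were M-Z- (Zfp57-/-). By these genotypes both groups lacked maternal Zfp57, and the M-Z- embryos lacked zygotic Zfp57 as well. In the paper such embryos came from Zfp57-/- mothers of the 129 strain mated with Zfp57+/- (DBA*) fathers. This cross and the hybrid background are taken from the paper, whose own RNA-seq may have used other embryos than these 12. Embryos with maternal Zfp57 were not analysed here, and the labels give neither sex nor litter. Per the paper, the mutant allele arose on the 129 background and was carried into the DBA* line by backcrossing. Paternal sequence linked to Zfp57 on chromosome 17 may therefore differ in strain between the groups. For genes near it, such a strain difference cannot be told apart from loss of zygotic Zfp57.

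ZFP57 is a KRAB zinc finger protein that binds a methylated TGCCGC motif and holds DNA methylation at imprinting control regions. Germline genes are a separate class of methylated genes. They act in germ cells, in piRNA biogenesis or in meiosis, and in somatic cells many are kept silent by promoter methylation together with the PRC1.6 complex, in which MGA and MAX bind CACGTG and E2F6 binds an E2F motif (TCCCGC). Some are switched on in primordial germ cells as their promoters lose methylation. The comparison asked whether loss of zygotic Zfp57 raised these genes as it raised imprinted genes such as Plagl1. At E13.5 an embryo holds few germ cells, and in total embryos fewer cells of a type and less RNA per cell cannot be told apart.

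The libraries held between 12005145 and 19216288 counts on genes. Values are given as CPM, counts scaled to a common library size by the TMM method, and as TPM where genes are compared with each other, since TPM also accounts for gene length. Markers of liver, heart, muscle, cartilage, neurons and red blood cells were present in all 12 libraries, and the placental markers Tpbpa and Prl3d1 had no count in any. The total level of Zfp57 did not tell the genotypes apart, with 19.07 to 40.83 CPM in M-Z+ and 17.8 to 27.8 CPM in M-Z- embryos. The labels were therefore not checked by the targeted gene itself. The imprinted genes Plagl1, Peg3 and Mest, known ZFP57 targets, served as comparators.

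The promoters of the germline genes were examined first, because both the ZFP57 motif and the PRC1.6 motifs are DNA sequences. The RefSeq promoter table (GRCm38.p6) held all 10 genes. In the 250 bases before the start site, GC content ranged from 52.0% to 70.4%, and the CpG observed over expected ratio ranged from 0.472 for Dpep3 to 1.00 for Ddx4. The median ratio of the germline promoters was 0.730, beside 0.374 over 32851 promoters of 27025 genes.

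**Figure D1:**
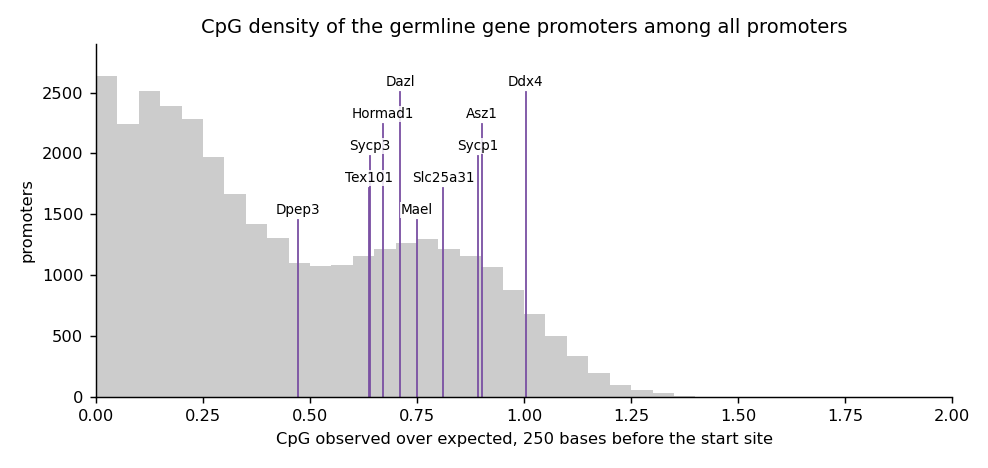
Histogram of the CpG observed over expected ratio in the 250 bases before the start site for all promoters of the RefSeq table (grey), with a line for each of the 10 germline genes. Dpep3 is lowest at 0.472 and Ddx4 highest at 1.00; line height has no meaning.

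The motif TGCCGC, searched on both strands, was present in the windows of 2 of the 10 genes, Dazl and Asz1, and in 8.68% of all promoters. The palindrome CACGTG was present in 6 of the 10 windows and in 6.02% of all promoters. These were Ddx4, Mael, Sycp1, Sycp3, Slc25a31 and Hormad1, with 2 copies each in Sycp3 and Hormad1. TCCCGC was present in Ddx4, Mael, Sycp3 and Hormad1, and in 16.9% of all promoters. None of the 10 windows held both TGCCGC and CACGTG, and those of Tex101 and Dpep3 held none of the 3 motifs. The RefSeq start site used for Tex101 lies 4625 bases inside the gene as placed in the deposited table. In the windows of the 10 genes no match overlapped another. Each of the 3 motifs contains a CpG, and the median CpG ratio of the germline windows was above that of all promoters. The shares over all promoters were not matched for CpG. A match describes letters only and does not show binding.

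The windows of Dazl and Asz1 are printed because they hold the ZFP57 motif, and those of Ddx4, Slc25a31 and Hormad1 because they hold CACGTG. The Mest window is one of 3 RefSeq entries for this imprinted gene and holds 2 copies of TGCCGC on the strand opposite to the gene. The third Mest entry, chr6:30737803-30738052, overlaps the printed window almost wholly and holds the same 2 copies, whereas the first holds none. Among the other imprinted comparators, the Peg3 window holds no TGCCGC, and that of Plagl1 holds 1 TGCCGC and 1 CACGTG. Each printed window runs 5′ to 3′ along the gene and ends at the base before the start site. It is in lower case with the 3 motifs, or their reverse complements, in capitals.
Dazl, chr17:50293621-50293870 (- strand): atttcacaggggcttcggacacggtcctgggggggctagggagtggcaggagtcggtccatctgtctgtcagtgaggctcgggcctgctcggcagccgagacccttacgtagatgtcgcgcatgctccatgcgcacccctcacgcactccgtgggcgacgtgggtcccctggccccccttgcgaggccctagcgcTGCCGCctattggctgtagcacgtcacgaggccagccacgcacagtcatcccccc
Asz1, chr6:18109062-18109311 (- strand): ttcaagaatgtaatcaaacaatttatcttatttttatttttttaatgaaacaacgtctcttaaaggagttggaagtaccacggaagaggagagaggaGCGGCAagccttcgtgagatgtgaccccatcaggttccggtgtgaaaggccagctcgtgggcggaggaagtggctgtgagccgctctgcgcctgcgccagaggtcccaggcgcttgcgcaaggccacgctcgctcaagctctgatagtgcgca
Ddx4, chr13:112652311-112652560 (- strand): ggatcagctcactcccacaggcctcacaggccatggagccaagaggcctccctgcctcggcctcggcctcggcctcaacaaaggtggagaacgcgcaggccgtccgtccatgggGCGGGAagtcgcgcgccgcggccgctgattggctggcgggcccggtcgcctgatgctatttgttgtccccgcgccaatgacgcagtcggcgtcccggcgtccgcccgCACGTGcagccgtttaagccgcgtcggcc
Slc25a31, chr3:40708621-40708870 (+ strand): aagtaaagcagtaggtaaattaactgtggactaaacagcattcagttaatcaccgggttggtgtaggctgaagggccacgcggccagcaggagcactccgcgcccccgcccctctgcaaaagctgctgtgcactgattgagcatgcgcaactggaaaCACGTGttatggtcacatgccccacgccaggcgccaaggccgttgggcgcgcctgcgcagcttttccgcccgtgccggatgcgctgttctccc
Hormad1, chr3:95559427-95559676 (+ strand): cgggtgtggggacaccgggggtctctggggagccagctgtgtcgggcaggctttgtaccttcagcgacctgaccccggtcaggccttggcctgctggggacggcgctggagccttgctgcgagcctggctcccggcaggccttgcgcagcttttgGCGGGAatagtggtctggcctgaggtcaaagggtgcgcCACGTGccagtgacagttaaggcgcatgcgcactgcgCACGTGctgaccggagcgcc
Mest, chr6:30737800-30738049 (+ strand): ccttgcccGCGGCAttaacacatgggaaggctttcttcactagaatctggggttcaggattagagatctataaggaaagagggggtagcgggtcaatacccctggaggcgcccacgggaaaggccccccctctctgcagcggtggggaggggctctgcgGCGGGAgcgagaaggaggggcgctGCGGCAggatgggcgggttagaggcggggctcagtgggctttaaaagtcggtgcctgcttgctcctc
The TGCCGC of Dazl lies 55 to 50 bases before the start site, and that of Asz1, on the opposite strand, 153 to 148 bases before it. In Ddx4, CACGTG starts 29 bases before the start site, and in Hormad1 the copies start 57 and 20 bases before it.

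All 10 genes were at low levels in these embryos. They gave 1608 counts over the 12 libraries, of which Slc25a31 alone held 42.0%. On the TPM scale the mean over the 12 embryos was 6.70 ± 1.78 (SD, n = 12) for Slc25a31, 2.41 ± 0.889 for Ddx4, 2.05 ± 0.875 for Dazl, 1.15 ± 0.532 for Mael and 1.00 ± 0.630 for Sycp3. Then came Hormad1 at 0.192, Sycp1 at 0.162, Asz1 at 0.159, Tex101 at 0.0468 and Dpep3 at 0.0130 TPM. Slc25a31 stood above Ddx4 in 12 of 12 embryos (exact sign permutation test over embryos, two-sided p = 0.000488). Ddx4 and Dazl did not differ beyond their spread (p = 0.346 by the same exact test), nor did Mael and Sycp3 (p = 0.475). Dazl stood above Mael in 11 embryos (exact p = 0.00244) and Sycp3 above Hormad1 in 12 (exact p = 0.000488). Hormad1, Sycp1 and Asz1 could not be ordered (exact p = 0.710 and 0.957 for the neighbours). For scale, the imprinted gene Plagl1 was at 183 ± 83.9 TPM.

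Only 4 of the 10 genes, Slc25a31, Ddx4, Dazl and Mael, passed the filter on low counts and entered the test across 16026 genes. In M-Z- against M-Z+ embryos, edgeR's quasi-likelihood test called none of the 4, a call being a log2 fold change beyond 0.5 with an adjusted p below 0.05. Over all tested genes 13 were called, which is 0.0811%, and 0 of 4 is near that share. None of the 4 had an unadjusted p below 0.05 either, and DESeq2 called none.

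**Figure D2:**
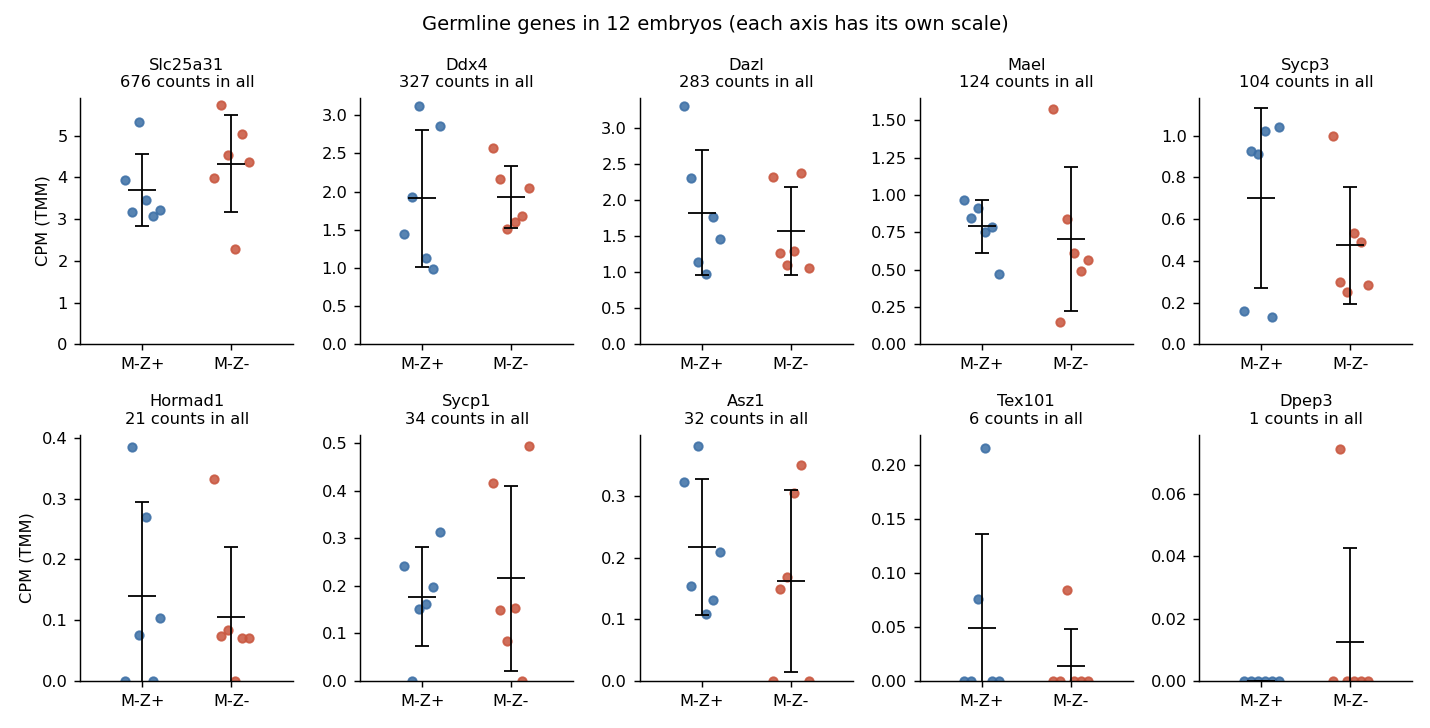
CPM of the 10 germline genes in each embryo (blue M-Z+, red M-Z-, 6 points each), with the mean and SD as black bars and a separate scale per gene. Genes are ordered by mean TPM, and the genotypes overlap in every panel.

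Positions are those of the deposited table, which follow GRCm38. Dazl (ENSMUSG00000010592, chr17:50279394-50293599) encodes an RNA-binding protein that licenses primordial germ cells for gamete development. Its level was 0.971, 1.61 and 3.30 CPM (lowest, median and highest) in M-Z+ and 1.06, 1.28 and 2.38 CPM in M-Z- embryos. The ranges overlapped almost fully, and the highest embryo was M-Z+ replicate 1. M-Z- against M-Z+, Dazl had a log2 fold change of -0.20 with a 95% interval of -0.90 to 0.51 (edgeR adjusted p = 0.876). Leaving out M-Z+ replicate 1 turned it to 0.04.

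Ddx4 (ENSMUSG00000021758, chr13:112598333-112652310), also called Vasa, encodes an RNA helicase of germ cells. It was at 0.983, 1.69 and 3.12 CPM in M-Z+ and at 1.51, 1.86 and 2.58 CPM in M-Z- embryos. The M-Z- values lay inside the M-Z+ range. The log2 fold change was 0.01 (95% interval -0.61 to 0.64, edgeR adjusted p = 0.992), and its sign changed under several other settings.

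Mael (ENSMUSG00000040629, chr1:166201201-166238747) and Asz1 (ENSMUSG00000010796, chr6:18050964-18109061) act in the piRNA pathway, which silences transposons in male germ cells. Mael was at 0.469, 0.817 and 0.967 CPM in M-Z+ and at 0.149, 0.587 and 1.58 CPM in M-Z- embryos. Both the lowest and the highest embryo were M-Z-. Its log2 fold change was -0.16 (95% interval -1.01 to 0.69, edgeR adjusted p = 0.912). Without M-Z- replicate 2, which had 2 Mael counts, the value was 0.04. Asz1 did not pass the filter. It had 2 to 5 counts per M-Z+ embryo and 0 to 5 counts per M-Z- embryo, 19 against 13 in all.

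Slc25a31 (ENSMUSG00000069041, chr3:40708855-40726096) encodes AAC4, an ADP/ATP carrier of the mitochondrial inner membrane found mainly in germ cells. It was at 3.08, 3.34 and 5.33 CPM in M-Z+ and at 2.29, 4.46 and 5.73 CPM in M-Z- embryos. Its M-Z- median was above that of M-Z+, while the lowest embryo of all was M-Z-. The log2 fold change of 0.23 had a 95% interval of -0.22 to 0.68 (edgeR adjusted p = 0.781). An exact permutation test of mean CPM, two-sided over all divisions of the embryos into 6 and 6, gave p = 0.301.

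Sycp1 (ENSMUSG00000027855, chr3:102818499-102936100), Sycp3 (ENSMUSG00000020059, chr10:88459569-88473236) and Hormad1 (ENSMUSG00000028109, chr3:95559677-95587671) encode proteins of the meiotic chromosome axis and synaptonemal complex. Sycp3 had 2 to 20 counts per M-Z+ embryo (median 12) and 3 to 12 per M-Z- embryo (median 5.5). M-Z+ embryos lay at both ends of its range. The ratio of its summed counts, M-Z- to M-Z+, was 0.640, with an exact 95% interval of 0.417 to 0.971 that covers counting error only. Over embryos the exact permutation test gave p = 0.290. The table places Sycp3 within Chpt1, which had 3082 counts, and reads of the pair could have been divided between them. Sycp1 had 17 counts in each group, at 0 to 6 per M-Z+ and 0 to 7 per M-Z- embryo. Hormad1 had 13 counts in M-Z+ and 8 in M-Z- embryos, and 9 of the 12 libraries held at least 1.

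Tex101 (ENSMUSG00000062773, chr7:24668007-24676675) and Dpep3 (ENSMUSG00000031898, chr8:105973520-105979419) encode surface proteins of germ cells in the testis. Tex101 had 5 counts in the M-Z+ and 1 in the M-Z- embryos, and 4 of the 5 were in M-Z+ replicate 4. Dpep3 had no count in the M-Z+ embryos, which allows a level of up to 0.0328 CPM over that group, and 1 count in the M-Z- embryos. No difference was detectable for either gene at this depth. Over the 10 genes, mean CPM was higher in M-Z- for 4 and lower for 6, and the exact permutation p ranged from 0.290 to 1 (the smallest possible is 0.00216). Over the 24161 genes with at least 1 count, 2.56% were lower and 2.7% higher in M-Z- embryos at an exact p below 0.05. The summed CPM of the 10 genes was 9.51 ± 1.76 (SD, n = 6) in M-Z+ and 9.52 ± 1.85 (SD, n = 6) in M-Z- embryos. The difference, M-Z- minus M-Z+, was 0.0058 CPM, and -0.62 CPM without Slc25a31, the largest member of the sum. It ranged from -0.53 to 0.55 CPM when embryos were left out, within the spread between embryos.

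The 3 imprinted comparators, chosen with earlier results known, rose in the same libraries. Plagl1, a paternally expressed zinc finger gene, was at 487 ± 95.9 CPM (SD, n = 6) and 1174 ± 78.7 CPM (SD, n = 6) in the M-Z+ and M-Z- groups, a log2 fold change of 1.27 (95% interval 1.01 to 1.53, edgeR adjusted p = 0.000212). Peg3 rose by 1.21 (0.82 to 1.60, edgeR adjusted p = 0.0173) and Mest by 0.67 (0.44 to 0.90, edgeR adjusted p = 0.0312). Imprinted genes did not all rise. Usp29 (log2 fold change 1.61, edgeR adjusted p = 0.152), Nnat (0.54, edgeR adjusted p = 0.685) and Mkrn3 (0.38, edgeR adjusted p = 0.664) were not called. Blcap (-0.89) and Dio3 (-1.80) were called lower, and 7 of the 13 called genes were higher. When embryos were left out 1 at a time, Plagl1 stayed called each time, whereas Peg3 lost its call in 4 cases (M-Z+ replicates 1, 3 and 5 and M-Z- replicate 6, adjusted p up to 0.0890) and Mest in 10 (all but M-Z+ replicate 1 and M-Z- replicate 5, adjusted p up to 0.141). The upper bounds of the 4 tested germline genes, 0.51 to 0.69, lay below the lower bounds of Plagl1 and Peg3 but not below that of Mest.

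**Figure D3:**
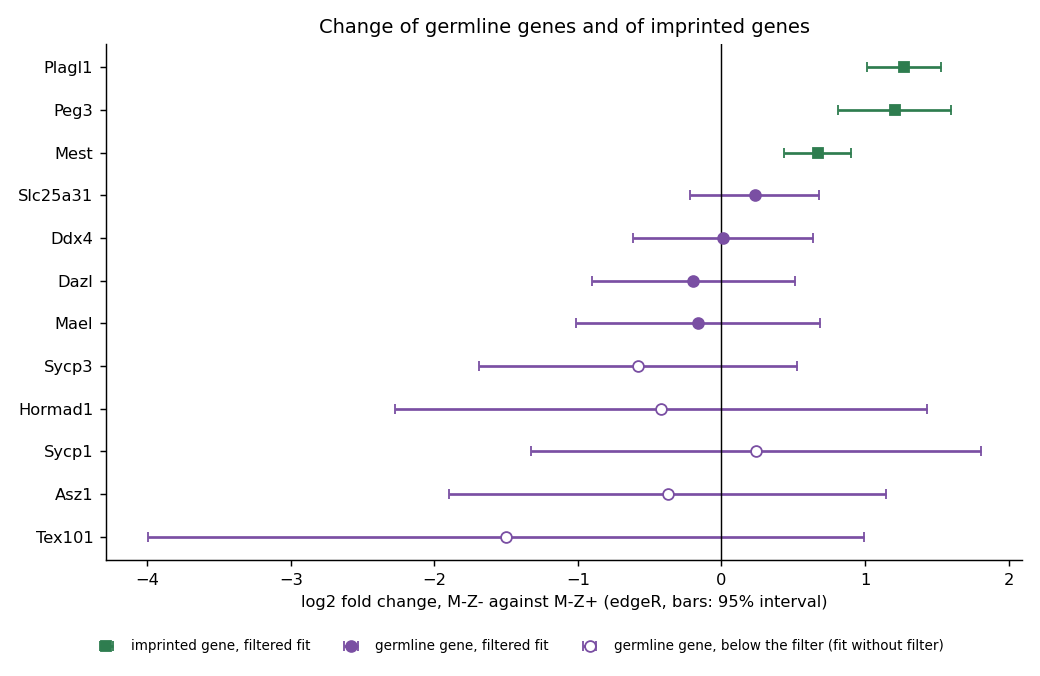
log2 fold change, M-Z- against M-Z+, with 95% intervals from edgeR. Green squares are imprinted genes, filled circles the 4 germline genes that passed the filter and open circles 5 of the 6 below it, taken from a fit without the filter (Dpep3, with no count in M-Z+, is left out); every germline interval shown includes 0.

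The difference between a germline gene and an imprinted gene was tested within embryos, as the log2 ratio of their CPM, by exact two-sided permutation over the embryos (12 unadjusted comparisons, set up with the results known). Relative to Plagl1 the change of Ddx4 was -1.17 ± 0.207 (SE, exact p = 0.00216), that of Slc25a31 -1.09 ± 0.234 (exact p = 0.00216), that of Dazl -1.47 ± 0.387 (exact p = 0.00216) and that of Mael -1.73 ± 0.509 (exact p = 0.00649). For the first 3 genes all M-Z- embryos were below all M-Z+ embryos in this ratio, and 0.00216 is the smallest p this test can give. Plagl1 alone separated the groups as fully, at 367 to 597 CPM in M-Z+ and 1066 to 1291 CPM in M-Z- embryos (exact permutation p = 0.00216). Peg3 and Mest alone gave the same exact p. A gene with little change would thus give a similar ratio, and the share of all genes that would do so was not counted. Relative to Peg3 the exact p ranged from 0.00433 for Dazl and Ddx4 to 0.0152 for Mael. Relative to Mest the differences were smaller. They were -0.54 ± 0.342 for Ddx4 (exact p = 0.154), -0.47 ± 0.280 for Slc25a31 (exact p = 0.119), -0.84 ± 0.367 for Dazl (exact p = 0.0519) and -1.11 ± 0.468 for Mael (exact p = 0.0260). By these ratios the 4 genes changed less than Plagl1 and Peg3, but the test cannot show whether that is particular to germline genes. The changes of Ddx4, Slc25a31 and Dazl were not separated from that of Mest. For Mael against Mest the unadjusted exact p rose to as much as 0.0498, and the difference shrank to -0.72, when embryos were left out. The edgeR intervals of Mael and Mest overlapped. Of the 6 genes below the filter, Sycp3 had a log2 fold change of -0.58 in a fit without the filter, and its upper bound of 0.53 also lay below the lower bounds of Plagl1 and Peg3. It passed the filter in 7 of the 12 fits with an embryo left out, where its upper bounds were 0.16 to 0.68. The upper bounds of Tex101, Asz1, Hormad1 and Sycp1 without the filter were wider, at 0.99, 1.15, 1.43 and 1.81, and Dpep3 had no M-Z+ count to compare with.

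Germ cell markers were low and varied between embryos. The summed level of Pou5f1, Nanog, Nanos2, Nanos3, Dnd1, Dppa3, Dppa5a and Prdm14 was 2.97 to 8.54 CPM in M-Z+ and 2.94 to 6.13 CPM in M-Z- embryos, with means of 5.79 ± 1.88 (SD, n = 6) and 4.96 ± 1.15 (SD, n = 6). The exact permutation test gave p = 0.372. Dnd1, with 388 counts, was the only one of the 8 to pass the filter, and its own level was 2.08 ± 0.282 (SD, n = 6) and 2.49 ± 1.07 CPM (SD, n = 6). Nanos3, an RNA-binding protein of primordial germ cells and the highest of the 8 on the TPM scale, had 65 counts in the M-Z+ and 59 in the M-Z- embryos (exact permutation p = 0.955). Nanog had 37 and 24, Nanos2 37 and 26, and Prdm14 8 and 5 counts. The pluripotency factor Pou5f1 had 71 and 32 (exact permutation p = 0.167), Dppa3 57 and 24 (exact permutation p = 0.210) and Dppa5a 61 and 27 (exact permutation p = 0.245). None of the 8 had an exact permutation p below 0.05, and without Dnd1 the sum was 3.71 ± 1.89 CPM (SD, n = 6) and 2.47 ± 1.01 CPM (SD, n = 6) (exact permutation p = 0.197).

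The levels of the germline genes were then set beside this marker sum over the 12 embryos, on the log2 scale. Dazl had a Pearson r of 0.57 (permutation p = 0.0518) and a Spearman rho of 0.42 (permutation p = 0.177). Its r was 0.71 within M-Z+ and 0.30 within M-Z- embryos, and 0.48 without the 2 embryos farthest from the median marker sum. Slc25a31 had an r of -0.46 (permutation p = 0.137) and a rho of -0.48 (permutation p = 0.122), with r of -0.59 within M-Z+, -0.32 within M-Z- and -0.22 without those 2 embryos. With Dnd1 left out of the marker sum its r was -0.10, whereas that of Dazl was 0.55. For Ddx4 the r was -0.14 (rho 0.01) and for Mael 0.07 (rho 0.15), with permutation p of 0.662 and 0.822 for r. Within M-Z+ and M-Z- embryos, r was -0.35 and 0.57 for Ddx4 and -0.09 and 0.09 for Mael, and without the same 2 embryos it was 0.13 and 0.48. None of the 4 relations passed Benjamini-Hochberg adjustment, the lowest adjusted p being 0.207 for Pearson's r and 0.354 for Spearman's rho. The points of an embryo share its library and its depth. With the marker sum as a covariate in edgeR the log2 fold change of Dazl was 0.0038 and that of Ddx4 -0.0092, and none of the 4 was called.

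**Figure D4:**
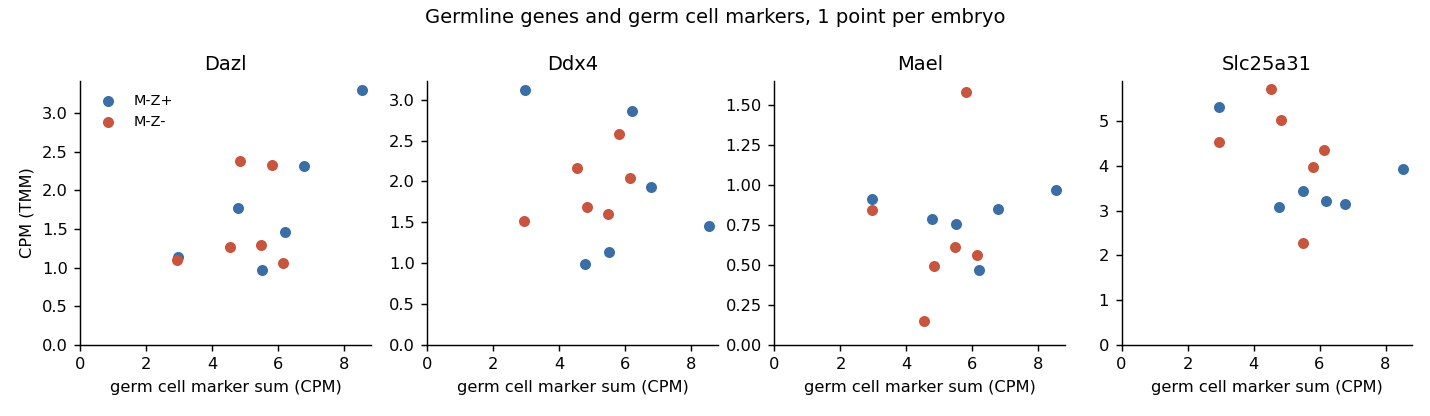
CPM of Dazl, Ddx4, Mael and Slc25a31 against the summed CPM of 8 germ cell markers, 1 point per embryo (blue M-Z+, red M-Z-). Dazl is highest in the embryo with the highest marker sum, 8.54 CPM, and Slc25a31 is not.

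Sex-linked genes divided the embryos of both genotypes. In each genotype the same 3 replicate numbers, 1, 2 and 6, had many counts of Y-linked genes (1976 to 5971 summed over Ddx3y, Kdm5d, Eif2s3y and Uty) and the other 3 embryos had 0 to 2. Of the latter 6, all but M-Z+ replicate 3 had 13469 to 51777 counts of Xist. The gonadal marker Amh, made by Sertoli cells of the testis, had 30 to 49 counts in the embryos with Y-linked counts and 2 to 14 in the others. Dazl had 15 to 41 counts in the embryos with Y-linked counts and 13 to 34 in the others, Ddx4 18 to 55 and 15 to 41, and Slc25a31 41 to 77 and 30 to 72. Summed over the embryos of each class in the same order, counts were 61 and 63 for Mael, 54 and 50 for Sycp3 and 23 and 11 for Sycp1. They were 12 and 20 for Asz1, 13 and 8 for Hormad1, 0 and 6 for Tex101 and 1 and 0 for Dpep3. The ranges of all 10 germline genes overlapped and were not tested, since the labels do not give sex. With the Y-linked level as a covariate none of the 4 germline genes was called.

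Other genes of the same pathways were not called either. Of 12 piRNA pathway genes 5 were tested and none was called, with a median log2 fold change of 0.00. The highest on the TPM scale were Tdrkh (log2 fold change 0.02), Tdrd1 (0.00) and Pld6 (-0.49, 95% interval -1.21 to 0.22), a tudor-domain anchor, a tudor-domain scaffold and a mitochondrial piRNA factor. Of 22 meiotic chromosome genes 19 were in the table and 9 were tested. None was called, 8 of the 9 had negative values, and the median was -0.13, beside -0.01 over all tested genes. Of all tested genes 48.25% had positive values, and the direction of this list was not tested. Syce2, a synaptonemal complex protein, Zcwpw1, a histone reader that partners PRDM9, and the cohesin subunit Stag3 were the most abundant, at -0.06, -0.13 and -0.09. In this list Msh5, a meiotic mismatch repair homologue named here after its value was seen, had -0.58 with an unadjusted p of 0.0371 and an edgeR adjusted p of 0.744. Over all genes 0.749% were lower and 0.792% higher at that unadjusted level and fold limit. Of 9 other germline genes, Brdt (-0.09) and Tex15 (0.28) were tested and not called.

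**Figure D5:**
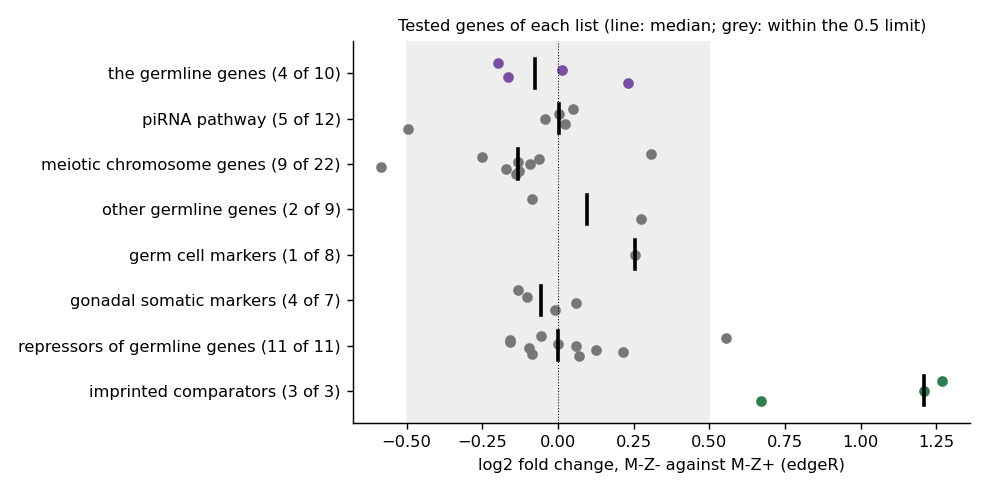
log2 fold change, M-Z- against M-Z+, of the tested genes of each list, with the list median as a black line and the number tested of the number named. The 4 germline genes lie between -0.20 and 0.23, whereas the 3 imprinted comparators lie at 0.67, 1.21 and 1.27.

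The genes that encode the machinery for silencing germline genes were all expressed and none was called. The 11 genes, E2f6, Mga, Max, Pcgf6, L3mbtl2, Rnf2 and Ring1 of PRC1.6 and the DNA methylation genes Dnmt1, Dnmt3a, Dnmt3b and Uhrf1, had a median log2 fold change of 0.00. The range was -0.16 for Pcgf6 to 0.56 for Mga (95% interval -0.24 to 1.35), which was at 75.5 ± 49.1 and 111 ± 39.2 CPM (SD, n = 6 each). Dnmt3a, a de novo methyltransferase named after its value was seen, was at 0.22 (95% interval 0.0053 to 0.43, unadjusted p = 0.0452, edgeR adjusted p = 0.745). Dnmt1, the maintenance methyltransferase, was at 346 ± 22.5 CPM (SD, n = 6) and 377 ± 28.7 CPM (SD, n = 6) in the M-Z+ and M-Z- groups, with a log2 fold change of 0.13. Max (-0.16) and Uhrf1 (0.07) were the next most abundant on the TPM scale. DNA methylation at the germline promoters was not analysed here.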

How the data were processed

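RNA-seq libraries of 12 E13.5 embryos, 6 per genotype, were grouped by the genotype in the sample labels. For 34745 genes the authors deposited counts of reads without normalization, and FPKM values that return from those counts with 1 length per gene. Per the labels' processing notes of the submitters, HISAT2 2.0.4 and the genome build mm10 are named among the tools and builds, while the counter and its use of strand are not given in the sources consulted. The 12 whole-genome bisulfite libraries listed in the series were not analysed here.

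Counts were tested with edgeR 4.0.16 in R 4.3.3 (TMM, filterByExpr, glmQLFit and glmQLFTest, Benjamini-Hochberg adjustment over 16026 genes). The standard error was the size of the log2 fold change over the square root of F. TPM was computed from the deposited FPKM. DESeq2 1.42.0 was an alternative. Single genes were compared by exact permutation over all divisions of 6 against 6, and correlations used 100000 permutations of log2(CPM + 0.5) for genes. Whether the labels' replicates came from separate litters is not given, so p-values measure the spread between these embryos. Intervals from counts cover counting error only.

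The germline genes, the gene lists and the tests were chosen with earlier results of these data known. All germline genes and comparators were named, and of each other list the called genes or the 3 highest by TPM. The marker and sex-linked genes were named freely, and Usp29, Nnat, Mkrn3, Blcap and Dio3 after their values were seen. The fits were tested on simulated counts of genes that pass the filter, which does not cover the 6 germline genes below it. Alternatives were another tool, size factors, filters, thresholds, a replicate block, covariates and each embryo left out. The Y-linked covariate, the marker sum without Dnd1 and the comparison with imprinted genes within embryos were added after the data were seen. Promoter sequences came from the RefSeq table for GRCm38.p6, and the first bases after the start site were found in transcripts of the same gene on the sense strand for all 10 genes. Figures were drawn with matplotlib 3.10.9.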

Additional observations from a re-analysis of the deposited data

Results flagged for a closer look

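Among 26 groups of 6 embryos examined for an embryo far from the others, 1 was flagged, and chance alone flags about 1 in 20 groups. Hormad1, a HORMA-domain protein of the meiotic axis, reached 0.332 CPM, which is 4 counts, in M-Z- replicate 1. The other 5 embryos of that genotype lay between 0 and 0.0841 CPM.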

How the results depend on the processing

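No germline gene was called under any of 22 alternatives, including the fit without the filter, which tested all 10. The number of all genes called was 13, and was 37 with DESeq2, 21 with the replicate block, 23 with a covariate for the slope on gene length and 247 with the unadjusted p. It was 11 to 15 when each embryo was left out. For these counts the cause was not tested. Same-numbered embryos correlated from 0.0202 to 0.639, and 1 of the 6 pairs was not above 0.1, so the numbers were not taken to pair embryos. All 6 pairs shared their class of Y-linked counts, and 3 M-Z+ and 2 M-Z- embryos correlated best with their own number, a hint from the data and not from the design. In the fit with the replicate block none of the 4 germline genes was called.

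Slc25a31 kept its direction (0.13 to 0.36 over 20 alternatives). Mael was 0.027 with the length slope, and -0.57 to 0.0394 when each embryo was left out. Ddx4 was -0.0092 with the germ cell marker covariate and -0.12 with the length slope, and -0.13 to 0.20 when each embryo was left out. Dazl was 0.0038 with the marker covariate, and -0.37 to 0.0385 when each embryo was left out. None of these values passed the test. Among the comparators Mest, at 0.67, was not called without the filter (edgeR adjusted p = 0.0526). A mean of at least 50 counts left only Slc25a31. The germ cell marker sum stayed lower in M-Z- embryos under 14 alternatives, with exact permutation p from 0.104 to 0.714. Depth limits the 5 germline genes with 1 to 34 counts, whose upper bounds lay above the lower bound of Peg3 or could not be set.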

Other observations

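Of 48 germline genes and germ cell markers outside the 10, 28 had a lower and 19 a higher mean CPM in M-Z- embryos, and 3 had an unadjusted exact permutation p below 0.05, all lower. Over all 24161 genes with a count, 51.2% had a lower mean, and 2.56% were lower and 2.7% higher at that p. These 3 were picked out after their values were seen. Tdrd6, a chromatoid body protein of spermatids, had 70 counts in M-Z+ and 29 in M-Z- embryos (exact p = 0.0108), the meiotic recombination gene Msh4 had 13 and 2 (exact p = 0.0195), and Gtsf1, a piRNA cofactor, had 11 and 1 (exact p = 0.0411). The smallest p this test can give is 0.00216, none of the 3 passed the filter, and the cause was not tested. Tdrd6 lies on chromosome 17, as do Zfp57, Msh5, Pou5f1 and Dazl among others. A strain difference linked to Zfp57 cannot be told apart there from loss of zygotic Zfp57.

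Among 16022 genes the 5 whose levels followed the summed level of the 10 germline genes most closely over the 12 embryos, as deviations from the genotype means of log2 CPM, were Sap18 (r = 0.921), Prokr1 (0.913), Gclm (0.898), Dclre1b (0.882) and 1110002E22Rik (0.869). These are the extremes of 16022 ranked values, and the sum is weighted to Slc25a31. M-Z+ replicate 3, with 2 counts each of Xist and of Y-linked genes, had the lowest germ cell marker sum of the M-Z+ embryos, 2.97 CPM, beside the highest summed level of the germline genes in that group, 12.1 CPM.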
